A study of Mus musculus with 9 samples.

Results

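The 9 genes described here encode the transcription factors at the end of the integrated stress response (ISR) and the proteins that pair with them or restrain them: Atf4, Atf5, Ddit3 (which encodes CHOP), Atf3, Cebpb, Cebpg, Trib3, Nupr1 and Crebrf. They were chosen by symbol for this role, and all 9 were found among the 20189 genes of the count table. In the ISR, kinases that sense stress phosphorylate the translation initiation factor eIF2α, and GCN2 is the kinase that responds to uncharged tRNA when an amino acid runs short. Phosphorylated eIF2α lowers protein synthesis in general but favours translation of the Atf4 mRNA, whose upstream reading frames otherwise keep the ribosome from the coding frame. ATF4, CHOP, ATF3 and the C/EBP proteins are basic leucine zipper (bZIP) factors, which bind DNA as dimers. ATF4 pairs with C/EBP partners on the C/EBP-ATF response element of amino acid synthesis, transport and stress genes.

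The cells were E14, an established line of mouse embryonic stem (ES) cells, wild type in every group, grown on gelatin in serum and leukemia inhibitory factor. Cells were left without Thr for 3 h (3 samples) or without Cys for 3 h (3 samples), and 3 samples were of unstarved cells (0 h). The study's methods describe a Cys-free DMEM with dialyzed serum for the ferroptosis experiments. Which medium the unstarved, Thr-starved and Cys-starved RNA samples received is not stated beside them. The part of a change of medium in the comparisons with unstarved cells was not tested. Poly(A) RNA was sequenced, and the deposited counts per gene summed to 48763102 to 74962733 in a library. The 15 ES cell markers that were checked were all detected at a mean of 5 CPM or more (counts scaled to a common library total), with summed levels of 5470 to 5540 CPM in unstarved, 5990 to 6110 CPM in Thr-starved and 5130 to 5180 CPM in Cys-starved libraries. The markers of primitive endoderm, trophoblast, mesoderm or germ layers and feeder fibroblasts summed to at most 67.8 CPM in any library. No primitive endoderm marker reached a mean of 5 CPM, against 1 marker of trophoblast, 2 of mesoderm or germ layers and 1 of fibroblasts. The sum of each marker set differed between some of the groups, and the part of these differences in the results was not tested. In bulk RNA, fewer cells that express a gene and less RNA per cell cannot be told apart. The labels do not say whether the 3 samples of a group were separate cultures, so the p-values measure only the spread between these samples.

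In Thr-starved cells all 9 mRNAs rose, and 7 of them rose by at least 2.11-fold. In Cys-starved cells 8 of the 9 rose, but with a different order, in which Atf3, Nupr1, Trib3 and Cebpb led and Ddit3 was near the end. A gene was called with an adjusted p of 0.05 or less (edgeR's quasi-likelihood test on the counts, Benjamini-Hochberg adjustment over all 20143 genes with at least 1 count). With Thr starvation 9 of 9 genes were called higher, where 31.1% of all genes tested were called higher and 63.0% were called in either direction. Their median log2 fold change was 1.25, against -0.016 over all genes, and 7 of the 9 changed by at least 1 on the log2 scale, where 13.2% of all genes did so in either direction. The scaling of libraries holds the median over all genes near no change, so rises and falls are relative to the other genes. With Cys starvation 8 of 9 were called higher and Atf5 was not called, where 17.5% of all genes were called higher and 36.3% in either direction. Their median log2 fold change was 0.39, against 0.007 over all genes, and 4 of the 9 changed by at least 1, where 1.47% of all genes did so. For all 9 genes the 3 libraries of each starvation did not overlap the 3 unstarved libraries, which held for 66.5% of all genes with Thr and 46.4% with Cys starvation. Both comparisons share the unstarved libraries. Between the starvations, 8 of the 9 were called higher in Thr-starved than in Cys-starved cells and Trib3 was not called, where 30.4% of all genes were called higher and 62.0% in either direction (31.6% lower). The 3 libraries of each starvation did not overlap for 8 of the 9, as for 65.8% of all genes.

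**Figure D1:**
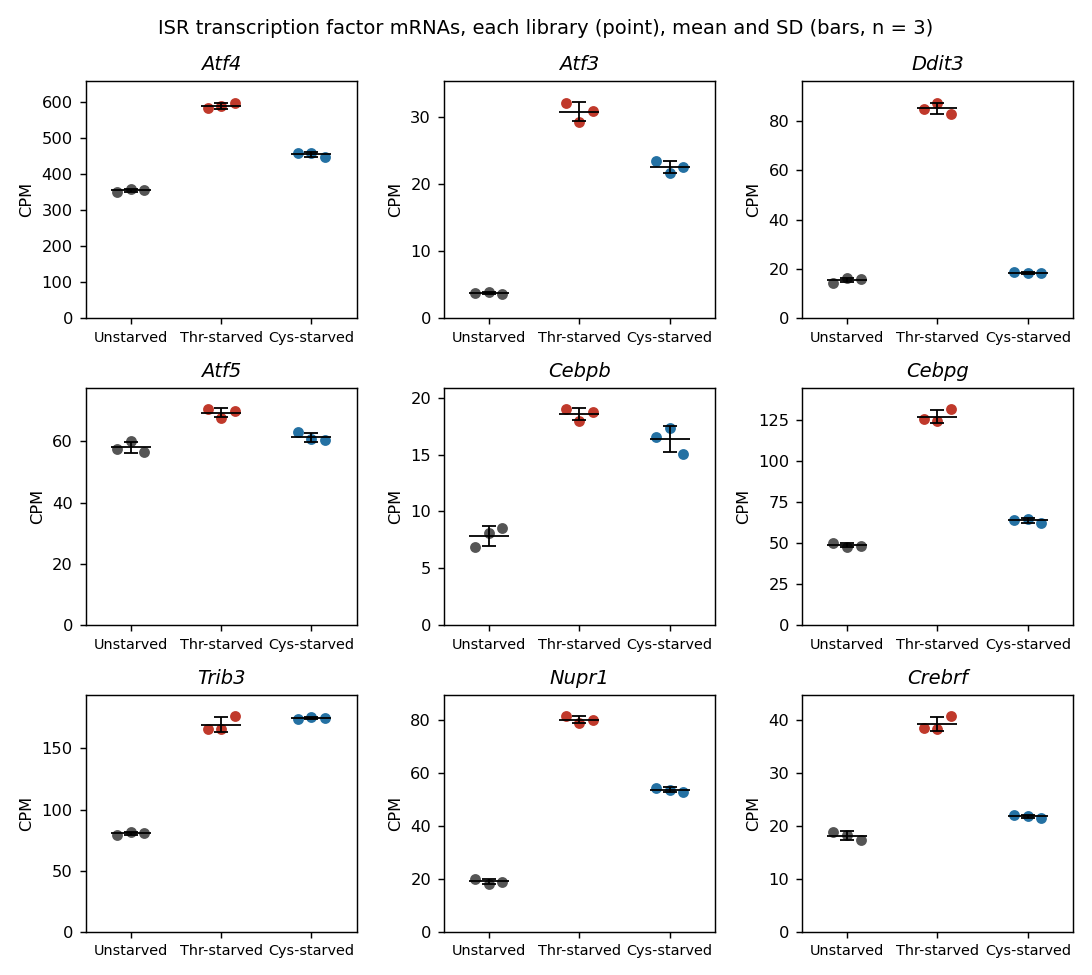
Each panel plots the level of 1 gene in CPM (linear axis from 0) in each library (points) of unstarved, Thr-starved and Cys-starved cells, with the mean and SD of 3 libraries as black bars. Ddit3, Cebpg and Crebrf are far higher in Thr-starved than in Cys-starved cells, Trib3 overlaps between the starvations, and Atf3, Cebpb and Nupr1 are raised in both.

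Atf4 encodes the factor whose translation the ISR favours. The Atf4 gene (ENSMUSG00000042406) lies at chr15:80255184-80257541 on the plus strand of GRCm38. Its level was 348.6, 358.9 and 354.6 CPM in the unstarved libraries, 581.6, 588.3 and 597.7 CPM in the Thr-starved libraries, and 458.5, 458.9 and 445.9 CPM in the Cys-starved libraries. The 3 groups were fully separated, with the Cys-starved libraries between the others. The log2 fold change was 0.74 (SE 0.021, adjusted p = 2.11e-18 from edgeR) with Thr starvation and 0.36 (SE 0.021, adjusted p = 7.87e-12) with Cys starvation. The direct difference between Thr-starved and Cys-starved cells was 0.37 (95% interval 0.33 to 0.42, adjusted p = 3.21e-13). With the trends of GC content and length removed, the Cys change was 0.23 and the direct difference 0.68, where the medians of all genes were -0.094 and 0.12, and both stayed called. These are mRNA levels, and the translation of Atf4 was not measured here.

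Atf5 encodes a related bZIP factor whose mRNA also carries upstream reading frames (ENSMUSG00000038539, chr7:44812256-44816658, minus strand). Its level was 57.37, 60.06 and 56.50 CPM in unstarved, 70.42, 67.64 and 69.93 CPM in Thr-starved and 62.96, 60.59 and 60.40 CPM in Cys-starved libraries. The Thr-starved libraries stood apart, while the lowest Cys-starved library was only just above the highest unstarved one. Atf5 rose by 0.26 on the log2 scale with Thr starvation (SE 0.033, adjusted p = 3.88e-07). With Cys starvation the log2 fold change was 0.081 (SE 0.033, adjusted p = 0.0617 from edgeR), which missed the threshold. The direct difference was 0.18 (SE 0.033, adjusted p = 5.77e-05). The Cys value was past the threshold under some other settings. Once trends with GC content and length were removed it was -0.035 (adjusted p = 0.4743), where the median of all genes was -0.094. The same setting gave 0.62 with Thr starvation and 0.65 between the starvations for Atf5, where the medians of all genes were 0.027 and 0.12. Atf5 shares 82 of its 1993 exon bases with Nup62 and Il4i1 on the opposite strand, and Nup62 itself rose by 1.04 with Thr starvation and fell by 0.145 with Cys starvation on the log2 scale. The library kit kept the strand, but the strand setting of the counting is not given in the sources used here, so the part of Nup62 in the Atf5 counts was not tested.

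Ddit3 showed the largest difference between the starvations. Its product CHOP is a C/EBP family member that is induced by ATF4 and drives genes of protein synthesis recovery and cell death (ENSMUSG00000025408, chr10:127290774-127296288, plus strand). Its level was 14.39, 16.33 and 15.78 CPM in unstarved, 84.97, 87.43 and 82.96 CPM in Thr-starved and 18.63, 18.24 and 18.20 CPM in Cys-starved libraries. The Thr-starved libraries stood far above the rest, and the Cys-starved libraries lay just above the unstarved ones without overlap. Thr starvation raised it 5.49-fold (2.46 on the log2 scale, SE 0.044, adjusted p = 5.31e-22) and Cys starvation 1.18-fold (0.24 on the log2 scale, SE 0.048, adjusted p = 0.000298, both from edgeR). Ddit3 was 4.63-fold higher in Thr-starved than in Cys-starved cells, a log2 difference of 2.21 (95% interval 2.12 to 2.30, adjusted p = 3.77e-21), and 0.288% of all genes had a larger difference in this direction. It was the only one of the 9 genes with a direct difference of at least 1 on the log2 scale. Ddit3 shares 68 of its 1713 exon bases with the methionyl-tRNA synthetase gene Mars on the opposite strand. Mars was at 301, 430 and 345 CPM in unstarved, Thr-starved and Cys-starved cells. Another annotated entry named Ddit3 shares 105 of these bases on the same strand and is not among the counted genes. The part of Mars and of this entry in the Ddit3 counts was not tested.

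Atf3 had the largest fold change of the 9 genes in both starvations. ATF3 is a bZIP factor that is low in unstressed cells, is induced by ATF4, and often acts as a repressor (ENSMUSG00000026628, chr1:191170296-191218039, minus strand). Its level was 3.704, 3.838 and 3.543 CPM in unstarved, 32.12, 29.29 and 30.89 CPM in Thr-starved and 23.39, 21.65 and 22.59 CPM in Cys-starved libraries. Both starvations were far above the unstarved level, and the lowest Thr-starved library was above the highest Cys-starved one. The change was 8.31-fold with Thr starvation (log2 fold change 3.06, SE 0.063, adjusted p = 7.27e-21) and 6.09-fold with Cys starvation (log2 fold change 2.61, SE 0.064, adjusted p = 2.34e-18). Of all genes, 0.159% had a larger log2 fold change with Thr and 0.0844% with Cys starvation. The direct difference was 0.45 (SE 0.049, adjusted p = 3.2e-08).

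Cebpb and Cebpg encode C/EBP partners of ATF4 and CHOP, and they moved differently. C/EBPβ (Cebpb, ENSMUSG00000056501, chr2:167688915-167690418, plus strand) was at 6.880, 8.091 and 8.569 CPM in unstarved, 18.98, 17.99 and 18.74 CPM in Thr-starved and 16.57, 17.36 and 15.09 CPM in Cys-starved libraries. No groups overlapped, and it rose in both, by 2.37-fold with Thr (log2 fold change 1.25, SE 0.072, adjusted p = 6.73e-13) and 2.09-fold with Cys (log2 fold change 1.06, SE 0.073, adjusted p = 1.24e-10). Its direct difference was 0.18 (95% interval 0.047 to 0.32, adjusted p = 0.019), and this call was lost without Cys-starved replicate 3 (0.13, adjusted p = 0.1151). With the trends of GC content and length removed it was 0.56 (adjusted p = 5.133e-09), where the median of all genes was 0.12. Cebpb shares 312 of its 1504 exon bases with Tmem189 on the opposite strand, which was at 16.4, 16.9 and 18.3 CPM in the 3 groups.

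C/EBPγ lacks a strong activation domain of its own and binds with ATF4 (Cebpg, ENSMUSG00000056216, chr7:35046422-35056573, minus strand). Cebpg was at 49.89, 47.73 and 48.04 CPM in unstarved, 125.2, 124.0 and 131.2 CPM in Thr-starved and 64.15, 64.76 and 62.00 CPM in Cys-starved libraries. No groups overlapped, and the Thr-starved libraries stood far above the other 6. The change was 2.61-fold with Thr (log2 fold change 1.39, SE 0.032, adjusted p = 5.42e-20) and 1.31-fold with Cys starvation (log2 fold change 0.39, SE 0.032, adjusted p = 2.74e-09). The direct difference of 0.996 (SE 0.031, adjusted p = 1.58e-17) was next in size to that of Ddit3. A stretch of the Cebpg transcript, bases 1094 to 1276 of 4709, matches 40 other genes at 90% identity or more over at least 50 bases, so reads from it may be shared.

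Trib3 encodes a pseudokinase that is induced by ATF4 and CHOP and binds them as a brake on their activity (ENSMUSG00000032715, chr2:152337422-152344032, minus strand). It was at 79.00, 81.87 and 80.70 CPM in unstarved, 166.3, 166.1 and 176.4 CPM in Thr-starved and 174.1, 176.0 and 175.2 CPM in Cys-starved libraries. The libraries of the 2 starvations overlapped, and all 6 were far above the unstarved ones. The change was 2.11-fold with Thr (log2 fold change 1.08, SE 0.028, adjusted p = 5.04e-19) and 2.17-fold with Cys starvation (log2 fold change 1.12, SE 0.028, adjusted p = 3.05e-18). The direct difference was -0.045 (95% interval -0.10 to 0.011, adjusted p = 0.154). Without Thr-starved replicate 3 it was -0.075 (adjusted p = 0.01949), and it turned to 0.36 (adjusted p = 2.045e-12) with the trends of GC content and length removed, where the median of all genes was 0.12.

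Nupr1 encodes a small stress-induced chromatin protein that is also downstream of ATF4 (ENSMUSG00000030717, chr7:126623249-126630861, minus strand). It was at 20.11, 18.27 and 18.92 CPM in unstarved, 81.58, 78.86 and 80.32 CPM in Thr-starved and 54.60, 53.72 and 52.76 CPM in Cys-starved libraries. The groups were fully separated, and the Cys-starved libraries were nearer to the Thr-starved than to the unstarved ones. The change was 4.20-fold with Thr (log2 fold change 2.07, SE 0.038, adjusted p = 1.12e-21) and 2.81-fold with Cys starvation (log2 fold change 1.49, SE 0.039, adjusted p = 5.59e-18), and the direct difference was 0.58 (SE 0.034, adjusted p = 1.16e-12).

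Crebrf encodes a negative regulator of the bZIP factor CREB3 (ENSMUSG00000048249, chr17:26715650-26776635, plus strand). It was at 18.92, 18.28 and 17.34 CPM in unstarved, 38.47, 38.41 and 40.75 CPM in Thr-starved and 22.11, 21.82 and 21.58 CPM in Cys-starved libraries. The groups did not overlap, and the Cys-starved libraries were close above the unstarved ones. The change was 2.16-fold with Thr (log2 fold change 1.11, SE 0.045, adjusted p = 1.08e-15) and 1.20-fold with Cys starvation (log2 fold change 0.26, SE 0.047, adjusted p = 9.64e-05). The Cys call ended with the GC content and length trends removed (0.068, adjusted p = 0.3097), where the median of all genes was -0.094. Its direct difference was 0.85 (SE 0.044, adjusted p = 1.04e-13).

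**Figure D2:**
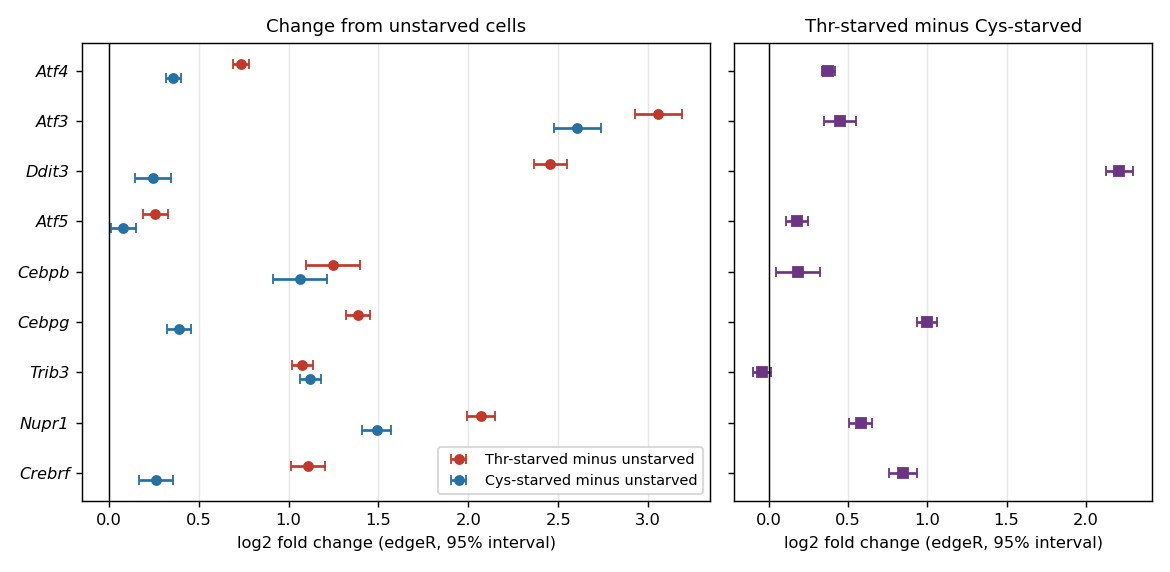
The left panel plots the log2 fold change of each gene in Thr-starved (red) and Cys-starved (blue) against unstarved cells, and the right panel the difference between the starvations, as points with unadjusted 95% intervals from edgeR. Atf3 leads in both starvations, Ddit3 has the widest gap (2.21), and the interval of Trib3 in the right panel crosses 0.

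The promoters are shown because the 3 genes with the largest Cys fold changes share a match to the C/EBP-ATF response element. The genes were chosen for roles around ATF4, which binds this element with its partners, so a match is not independent of the choice. RefSeq promoters of GRCm38.p6, from 250 bases before to 50 after a start, were matched for all 9 genes (10 promoters, since Atf5 has 2 starts). They were searched on both strands for the core of the C/EBP-ATF response element (TGATGNAA), the full cAMP response element (TGACGTCA), the palindromic C/EBP site (TTGCGCAA) and the endoplasmic reticulum stress element. Of all 32851 promoters, 3.97% hold the response element core, 1.79% the cAMP response element, 0.183% the C/EBP site and 0.119% the endoplasmic reticulum stress element. Promoters of 3 of the 9 genes hold the response element core and none of the 9 holds another of the motifs, so no match overlapped another. Bases outside these promoters were not searched, so an element further upstream would be missed. Below are the stretches from 170 bases before to 30 after the start, 5′ to 3′ on the strand of the gene, for the 3 genes with the core and for Ddit3, which has none in this window. Capitals mark the match, which reads as the reverse complement of the core.
Atf3 (chr1:191183304-191183503, minus strand): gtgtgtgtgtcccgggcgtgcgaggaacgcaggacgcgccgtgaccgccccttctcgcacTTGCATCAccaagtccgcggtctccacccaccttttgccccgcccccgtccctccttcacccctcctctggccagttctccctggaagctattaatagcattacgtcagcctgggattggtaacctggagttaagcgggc
Nupr1 (chr7:126625441-126625640, minus strand): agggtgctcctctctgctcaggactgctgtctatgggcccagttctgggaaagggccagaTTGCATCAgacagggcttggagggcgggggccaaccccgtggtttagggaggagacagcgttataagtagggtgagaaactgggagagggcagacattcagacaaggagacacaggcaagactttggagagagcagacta
Trib3 (chr2:152344031-152344230, minus strand): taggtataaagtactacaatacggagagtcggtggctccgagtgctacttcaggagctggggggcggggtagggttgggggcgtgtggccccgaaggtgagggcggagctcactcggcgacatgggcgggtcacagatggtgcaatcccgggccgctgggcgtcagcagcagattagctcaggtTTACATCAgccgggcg
Ddit3 (chr10:127290623-127290822, plus strand): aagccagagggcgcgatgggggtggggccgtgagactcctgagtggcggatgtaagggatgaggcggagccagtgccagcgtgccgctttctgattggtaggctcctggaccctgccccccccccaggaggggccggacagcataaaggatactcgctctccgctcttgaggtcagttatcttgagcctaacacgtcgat

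In Atf3 and Nupr1 the same letters, TTGCATCA, stand at the same place, from -110 to -103 relative to the start, and in Trib3 the match TTACATCA lies past the start, from +15 to +22. The GENCODE genes of Atf3 and Nupr1 also reach upstream of these starts. Atf3, Nupr1 and Trib3 were the 3 genes of the 9 with the largest Cys fold changes (2.61, 1.49 and 1.12 on the log2 scale). Cebpb, close behind at 1.06, has no match in its window. With Thr starvation they ranked 1, 3 and 7, and Ddit3 and Cebpg, with no match in the window, ranked 2 and 4. This pairing of motif and order was noticed after the values were known. Across the 12175 tested genes with a promoter in the table, 338 hold the core, of which 33.1% were called higher with Cys starvation against 21.5% of all 12175, and 40.2% with Thr starvation against 34.7%. Of the 83 genes whose match has C at the open position, as in Atf3 and Nupr1, 48.2% were called higher with Cys and 45.8% with Thr starvation. A rise of at least 1 on the log2 scale with Cys starvation was called for 14.5% of these 83 genes, 7.4% of the 338 and 1.25% of all 12175. With Thr starvation the shares were 9.64%, 10.7% and 5.31%, so the genes with C at the open position were not above the rest of the 338. The letter C was taken from Atf3 and Nupr1, which are among the 83 genes. These shares are a description, no test was made of them, and a match of letters is not a bound site.

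The order of the 9 mRNAs by level per length, in CPM per kb of exon, differed between the conditions. In unstarved cells Atf4 was the most abundant at 150.0 CPM per kb, followed by Trib3 (37.9), Atf5 (29.1), Ddit3 (9.05), Cebpg (8.64), Nupr1 (7.6), Cebpb (5.22), Crebrf (2.12) and Atf3 (1.72). The libraries of Ddit3 and Cebpg overlapped in this order, and no other neighbours did. In Thr-starved cells Atf4 was at 250.0 CPM per kb, and Ddit3 came next after Trib3 (79.8) at 49.7, above Atf5 (34.8), Nupr1 (31.9) and Cebpg (22.6). Atf3, at 14.3, had passed Cebpb (12.3) and Crebrf (4.58), and no neighbours overlapped. In Cys-starved cells Atf4 was at 193 CPM per kb, Trib3 at 82.4, Atf5 at 30.8 and Nupr1 at 21.4, while Cebpg (11.3), Cebpb (10.9), Ddit3 (10.7) and Atf3 (10.5) had overlapping neighbours, and Crebrf was last at 2.55. Atf4 made up 59.7% of the summed level of the 9 mRNAs in unstarved, 50% in Thr-starved and 51.7% in Cys-starved cells.

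**Figure D3:**
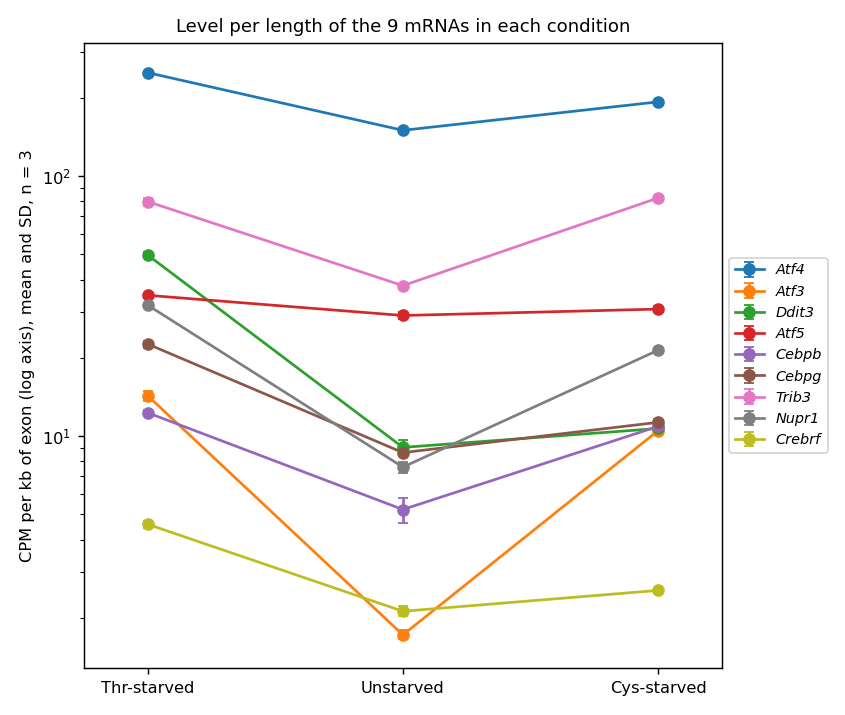
Lines join the mean level of each gene in CPM per kb of exon (log axis, SD bars, 3 libraries each) in Thr-starved, unstarved and Cys-starved cells. Ddit3 climbs to 49.7 in Thr-starved cells but stays near 10.7 in Cys-starved cells, where Cebpg, Cebpb, Ddit3 and Atf3 lie close together.

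Ratios of 2 genes within a library do not depend on how libraries are scaled, but trends with GC content and length were not removed from them. Per 100 Atf4 counts there were 4.128, 4.55 and 4.452 Ddit3 counts in unstarved, 14.61, 14.86 and 13.88 in Thr-starved and 4.064, 3.974 and 4.081 in Cys-starved libraries. So Ddit3 rose more than Atf4 with Thr starvation, and in Cys-starved cells all 3 ratios were slightly below the lowest unstarved one. Cebpg showed a like pattern, with 13.7 ± 0.529, 21.5 ± 0.437 and 14 ± 0.104 counts per 100 Atf4 counts in unstarved, Thr-starved and Cys-starved libraries (SD, n = 3), where the Cys-starved libraries lay within the range of the unstarved ones. Atf3 stood at 1.04 ± 0.0388, 5.22 ± 0.276 and 4.96 ± 0.212 and its 2 starvations overlapped. Trib3 was highest per Atf4 in Cys-starved libraries, at 38.5 ± 0.685 against 28.8 ± 0.662 in Thr-starved and 22.7 ± 0.0726 in unstarved ones. Nupr1 stood at 5.4 ± 0.345, 13.6 ± 0.35 and 11.8 ± 0.101. Atf5 fell behind Atf4 in both starvations, from 16.4 ± 0.406 to 11.8 ± 0.311 with Thr and 13.5 ± 0.269 with Cys. Ratios to Ddit3 were far apart between the starvations. There were 521 ± 25.2 Trib3 counts per 100 Ddit3 counts in unstarved, 199 ± 11.8 in Thr-starved and 954 ± 17.2 in Cys-starved libraries. For Atf3 there were 23.9 ± 1.69 Atf3 counts per 100 Ddit3 counts in unstarved, 36.2 ± 2.34 in Thr-starved and 123 ± 3.60 in Cys-starved libraries. The ratio of Cebpg to Cebpb was 625 ± 87.8, 683 ± 21.1 and 390 ± 19.0 per 100, lowest in Cys-starved libraries. With 3 libraries against 3, an exact permutation test cannot go below 0.1, so the ratios are given without a test.

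**Figure D4:**
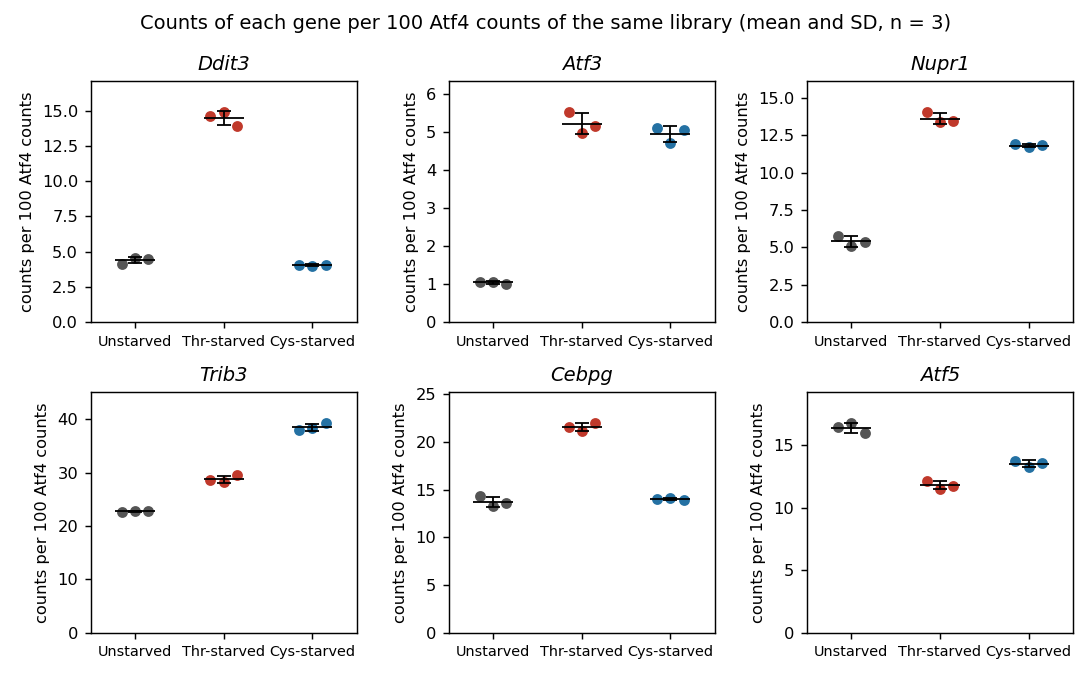
Each panel plots the counts of a gene per 100 Atf4 counts of the same library (points, linear axis from 0), with the mean and SD of 3 libraries. Ddit3 and Cebpg exceed their unstarved ratio in Thr-starved libraries only, Trib3 is highest in Cys-starved libraries, and Atf5 is lowest in Thr-starved libraries.

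The genes whose levels over the 9 libraries lay closest to those of Atf4, Ddit3 and Atf3 were found by Euclidean distance on log2(CPM + 0.5) less the unstarved mean, among 3628 genes with a mean level of 5 CPM or more and a change of at least 0.5 in either starvation. For Atf4 they were Pspc1, which encodes a paraspeckle protein (distance 0.082), Manbal (0.0977) and 4930503L19Rik (0.111). Pspc1 was at 92.8 ± 1.65, 152 ± 4.06 and 118 ± 1.85 CPM in unstarved, Thr-starved and Cys-starved cells (SD, n = 3). For Ddit3 they were the snoRNA host transcript Snhg1 (0.407), the arrestin-domain gene Arrdc4 (0.424) and Rassf1 (0.466). Snhg1 was at 50.5 ± 3.98, 246 ± 3.36 and 62.0 ± 2.01 CPM and Arrdc4 at 79.5 ± 0.767, 369 ± 4.64 and 99.5 ± 3.36 CPM in the same order. For Atf3 they were Adm2, which encodes a secreted peptide (1.79), Chac1, which encodes a glutathione-degrading enzyme (2.02), and Nupr1 (2.27), all further off than the neighbours of Atf4 and Ddit3. Chac1 was at 27.6 ± 1.47, 95.1 ± 1.98 and 127 ± 1.64 CPM, so that, unlike Atf3, it was higher in Cys-starved than in Thr-starved cells (log2 difference of Thr minus Cys -0.41, adjusted p = 9.19e-11).

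The mRNAs upstream of these factors were listed as the eIF2α kinases, eIF2α itself, the subunits of its phosphatase, the GCN2 inhibitor gene Impact and Eif2b4, a subunit of the exchange factor eIF2B. Of 9 tested genes, 5 rose and 4 fell with Thr starvation (median log2 fold change 0.082), where 31.1% of all genes rose and 31.9% fell. With Cys starvation 3 rose and 2 fell (median -0.006), where 17.5% of all genes rose and 18.8% fell. With the GC content and length trends removed 1 rose and 5 fell, but the calls over all genes shifted downwards too. Of all calls with Cys starvation, 21.6% were higher in that setting, against 48.17% in the main fit. The shares of all genes that rose or fell are also the background of the lists that follow, for the main fit only. The phosphatase subunits, which end the ISR by dephosphorylating eIF2α, rose in both. Ppp1r15a was at 48.5 ± 1.46, 95 ± 1.2 and 88.7 ± 4.92 CPM in unstarved, Thr-starved and Cys-starved cells, a rise of 0.97 on the log2 scale with Thr (SE 0.037, adjusted p = 3.15e-16) and 0.87 with Cys starvation (SE 0.036, adjusted p = 2.8e-14). Ppp1r15b rose by 0.80 with Thr and 0.17 with Cys starvation. Eif2ak1, which encodes the heme-regulated kinase, fell in both (log2 fold changes -0.84 and -0.324). Eif2ak4, which encodes GCN2, fell by 0.327 with Thr starvation and had a log2 fold change of -0.012 with Cys starvation (adjusted p = 0.873). The remaining kinase genes, named to complete the group, were Eif2ak2 and Eif2ak3. They rose with Thr starvation (log2 fold changes 0.69 and 0.14) and were not called with Cys starvation (0.09 and -0.006). Eif2s1, which encodes eIF2α, fell in both (-0.234 and -0.083).

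The known ATF4 targets in amino acid supply were split with Thr starvation and mostly higher with Cys starvation. Of 22 genes, 13 rose and 6 fell with Thr starvation (median log2 fold change 0.19), and 19 rose and 2 fell with Cys starvation (median 0.43). Between the starvations 4 were higher and 14 lower in Thr-starved cells, but 12 were higher and 9 lower with the GC content and length trends removed. In that setting 64.71% of the calls over all genes were higher in Thr-starved cells, against 49.03% in the main fit. The transporter gene Slc1a4 and the mitochondrial folate enzyme gene Mthfd2 rose in both, by 0.90 and 0.81 with Thr and 0.96 and 0.70 with Cys starvation. Pck2, the mitochondrial phosphoenolpyruvate carboxykinase, was at 96.5 ± 1.68 CPM in unstarved, 80.1 ± 0.761 CPM in Thr-starved and 226 ± 0.648 CPM in Cys-starved cells. It thus fell by 0.269 with Thr and rose by 1.23 with Cys starvation on the log2 scale (adjusted p = 3.36e-09 and 1.64e-19 from edgeR). The glycine transporter gene Slc6a9 rose by 0.28 and 1.19. The arginine and lysine transporter gene Slc7a3 fell in both (-0.261 and -0.204), and Slc43a1, with overlapping libraries, fell by 0.257 with Cys starvation (adjusted p = 0.0432). Its log2 fold change with Thr starvation was -0.208 (adjusted p = 0.0713).

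Aminoacyl-tRNA synthetases load tRNAs with amino acids, and those listed here as known ATF4 targets moved together. Synthetases outside this list were not examined. Of 13 genes, 12 rose and none fell with Thr starvation (median log2 fold change 0.25), and 12 rose and none fell with Cys starvation (median 0.20). The largest rises were 0.66 in Aars and 0.63 in Cars with Thr starvation, and 0.37 in Cars and 0.26 in Gars with Cys starvation. No gene of this list changed by 1 on the log2 scale.

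Stress effectors downstream of ATF4 and CHOP had the largest list medians. Of 22 genes, 16 rose and 3 fell with Thr starvation (median log2 fold change 0.58), and 16 rose and 2 fell with Cys starvation (median 0.70). Between the starvations 7 were higher and 13 lower in Thr-starved cells, against 10 and 10 with the GC content and length trends removed. The share of higher calls over all genes moved from 49.03% to 64.71% in that setting. Gdf15, a stress-induced secreted factor, was at 8.29 ± 0.207, 39.0 ± 0.672 and 15.6 ± 0.256 CPM, log2 fold changes of 2.23 and 0.92. Adm2 rose by 2.03 and 2.26. Inhbe, which encodes an activin subunit, went the other way from Gdf15, from 5.04 ± 0.867 CPM in unstarved to 9.94 ± 0.796 CPM in Thr-starved and 25.3 ± 1.14 CPM in Cys-starved cells, log2 fold changes of 0.99 and 2.34. Of the cell death genes that CHOP is known to induce, the BH3-only gene Bbc3, named here after its values were seen, rose by 1.00 with Thr and 0.14 with Cys starvation. The BH3-only gene Bcl2l11 fell in both (log2 fold changes -1.104 with Thr and -0.182 with Cys), and the death receptor gene Tnfrsf10b rose by 0.45 with Thr and fell by 0.304 with Cys starvation. Ndrg1 fell by 0.538 with Thr starvation and had a log2 fold change of 0.15 with Cys starvation (adjusted p = 0.0992).

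The targets of XBP1 and ATF6, the other arms of the endoplasmic reticulum stress response, mostly fell. Of 16 genes, 2 rose and 13 fell in each starvation (median log2 fold change -0.46 with Thr and -0.311 with Cys). Hspa5, the main chaperone of this compartment, was at 744 ± 10.2 CPM in unstarved, 247 ± 2.69 CPM in Thr-starved and 511 ± 11 CPM in Cys-starved cells, and fell in both starvations (log2 fold changes -1.592 and -0.543, adjusted p = 7.42e-24 and 5.41e-15). Manf and Pdia4 fell most with Thr starvation (-2.347 and -2.082) and less with Cys starvation (-0.437 and -0.387), and Creld2 fell in both (-0.403 and -0.626). The rises were in Herpud1 (0.77 and 0.89), a gene of protein degradation at this compartment that also responds to ATF4, and in Sel1l (0.18 and 0.11).

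The last list held other bZIP genes as possible partners of these factors, and pairing was not measured. Of 28 tested genes, 17 rose and 5 fell with Thr starvation (median log2 fold change 0.33), and 11 rose and 3 fell with Cys starvation (median 0.12). Over all genes 63.0% were called with Thr and 36.3% with Cys starvation. The Cys split was 7 and 6 with the GC content and length trends removed, where 21.6% of the calls over all genes were higher. Jun, an AP-1 subunit, was at 6.02 ± 0.663, 45.1 ± 0.892 and 11.4 ± 0.393 CPM in unstarved, Thr-starved and Cys-starved cells, a rise of 2.91 with Thr (SE 0.061, adjusted p = 9.68e-21) and 0.92 with Cys starvation on the log2 scale (SE 0.068, adjusted p = 4.49e-10). Creb3, whose product the Crebrf protein restrains, rose by 1.23 with Thr and 0.31 with Cys starvation, beside the rises of Crebrf of 1.11 and 0.26. Nfil3, a bZIP repressor, fell by 0.448 with Thr and rose by 0.79 with Cys starvation, and Junb rose by 0.96 and fell by 0.355. Creb3l2 fell in both (-0.815 and -0.247), and Dbp fell by 0.615 with Thr starvation, with a log2 fold change of 0.087 in Cys-starved cells (adjusted p = 0.463).

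**Figure D5:**
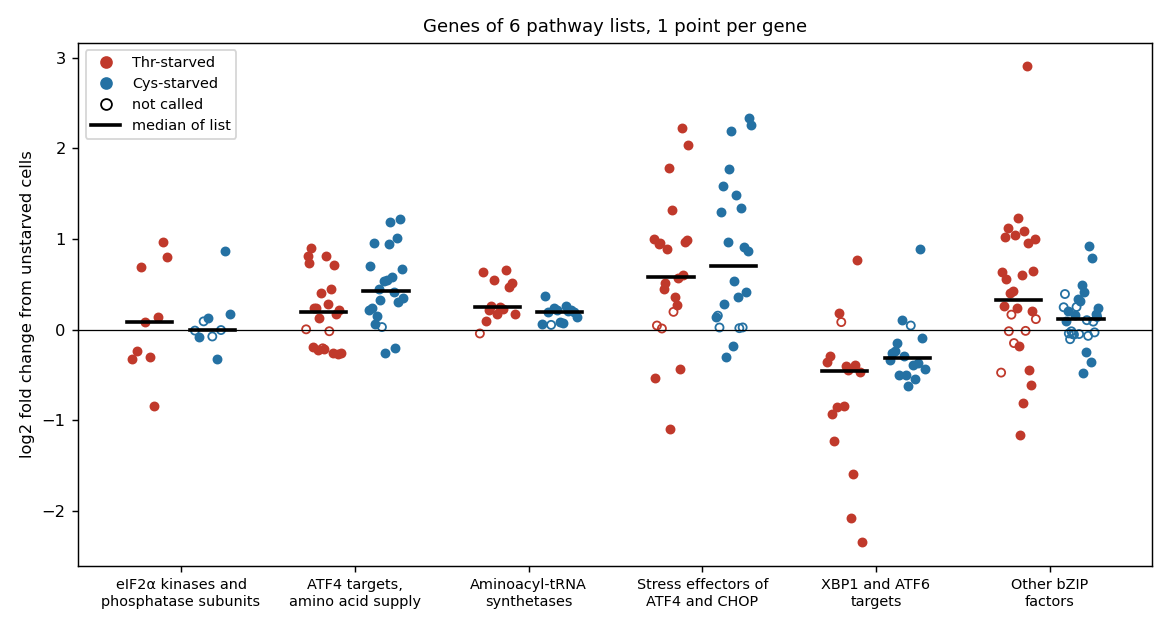
Each point is the log2 fold change of 1 gene of 6 pathway lists in Thr-starved (red) or Cys-starved (blue) against unstarved cells, filled where called and open where not, with the list median as a black bar. The aminoacyl-tRNA synthetases are those known as ATF4 targets. They lie mostly above 0 and XBP1 and ATF6 targets mostly below 0 in both starvations, and stress effectors have the highest medians (0.58 and 0.70).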

How the data were processed

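Poly(A) RNA libraries of 9 samples (3 unstarved, 3 Thr-starved, 3 Cys-starved) were sequenced from both ends (43 bases) on a single run. Per the submitters' processing notes the authors used STAR 2.7.4a, HTSeq, FastQC 0.11.7, DESeq2 (given as DESeq 1.30.1) and R 4.0.3 with GRCm38. The deposited counts per gene are not normalized, and the authors made the signal values of a further deposited table by dividing these counts by a size factor per library (whole reads were recovered within 8.58e-05). Counts were used for all tests, and the signal table only provided size factors for an alternative. Columns were mapped to samples by name. The unstarved columns carry WT and a number but not the word unstarved, and were mapped by WT and number. They also carry a tag that the starved columns lack and that the labels do not explain. Any difference it marks cannot be told apart from starvation in the comparisons with unstarved cells.

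Counts were tested in R 4.3.3 with edgeR 4.0.16 (TMM, quasi-likelihood F test, all 9 libraries in 1 fit, genes with at least 1 count in all, Benjamini-Hochberg over 20143 genes, threshold 0.05). CPM use library sizes scaled by TMM, and level per length uses the union of GENCODE M21 exons (20171 of 20189 identifiers named). SE is the absolute log2 fold change over the square root of F, and 95% intervals are unadjusted. The common coefficient of variation between replicates was 3.53%. Over genes with low counts only, pairs of replicates had a chi-square per gene of 1.963 to 2.137. Sampling noise alone would give 1 if each count were independent, and the source of the excess was not tested. Depth was 48763102 to 74962733 counts. Replicate numbers were checked as pairs by correlating same-numbered deviations from group means over 11410 genes. They ranged from -0.2439 to 0.1064, so the numbers were not used as pairs in the main model.

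The 9 genes, the pathway lists and the tests were chosen with earlier results of these data known. The named genes were the 9 genes, from each list the 2 called genes that rose most and the 2 that fell most in each starvation (mean level of 5 CPM or more), and the 3 nearest genes of Atf4, Ddit3 and Atf3. Bbc3, Eif2ak2 and Eif2ak3 were named outside this rule. Near-identical transcripts were searched with BLAST 2.17.0. Promoter sequences are from RefSeq (GRCm38.p6). Alternatives were DESeq2 1.42.0, RLE normalization, the deposited size factors, filterByExpr, at least 10 counts in every library, only the 2 groups compared, the replicate block, counts thinned to the smallest library, GC content and length trends removed (loess, span 0.3), an adjusted p of 0.01, a log2 fold change of 1 or more in size, and each library left out. The fitting steps were tested on simulated data with far fewer changed genes than were called with either starvation. Such data cannot show how the scaling of libraries behaves here. Figures used matplotlib 3.10.9.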

Additional observations from a re-analysis of the deposited data

How the results depend on the processing

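All 162 single-gene values with Thr starvation (9 genes, 18 settings) kept their direction and call, as did 156 of 162 with Cys starvation and 159 of 162 between the starvations. Over these settings the log2 fold change of Ddit3 between the starvations ranged from 2.17 to 2.26, but that of Atf4 from 0.36 to 0.68, that of Atf5 from 0.17 to 0.65 and that of Cebpb from 0.13 to 0.56. Atf4 with Cys starvation ranged from 0.23 to 0.37 and Atf5 with Thr starvation from 0.24 to 0.62. The value furthest from the reported one in these 5 ranges came with GC content and length trends removed. Atf5 with Cys starvation was called with at least 10 counts in every library (0.088, adjusted p = 0.03043), with only the 2 groups compared (0.085, adjusted p = 0.04321), with thinned counts (0.098, adjusted p = 0.04846) and without unstarved replicate 2 (0.11, adjusted p = 0.02447). With GC content and length trends removed it was -0.0351, Trib3 between the starvations was 0.3593 and Crebrf with Cys starvation was 0.068, and the cause was not tested. This setting moved the median of all genes from 0.0068 to -0.0942 with Cys starvation and from -0.0183 to 0.1166 between the starvations, and the share of calls that were higher from 48.17% to 21.6% and from 49.03% to 64.71%. The deposited size factors gave 36.8% higher calls with Cys starvation.

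Requiring a log2 fold change of 1 or more in size left 2668 of 12689 called genes with Thr starvation, 296 of 7313 with Cys starvation and 2303 of 12488 between the starvations, and 7, 4 and 1 of the 9 genes. It left, with Thr starvation, Cys starvation and between them, 0, 3 and 1 of the amino acid supply genes, 6, 8 and 3 of the stress effectors, 4, 0 and 4 of the XBP1 and ATF6 targets, 8, 0 and 4 of the other bZIP genes, and none of the synthetases or the eIF2α group. The total called in each list stayed within 1.5 times under the other settings, but its split did not. With GC content and length trends removed, the higher and lower calls between the starvations went from 4 and 14 to 12 and 9 for amino acid supply, from 8 and 2 to 13 and 0 for the synthetases, from 4 and 4 to 5 and 2 for the eIF2α group, and from 3 and 10 to 6 and 7 for XBP1 and ATF6 targets. With Cys starvation they went from 19 and 2 to 17 and 4 for amino acid supply, from 3 and 2 to 1 and 5 for the eIF2α group, from 11 and 3 to 7 and 6 for other bZIP genes and from 16 and 2 to 15 and 5 for stress effectors. With the deposited size factors the bZIP split with Cys starvation was 10 and 6. Leaving out 1 library gave 12096 to 12689 genes with Thr starvation, 6520 to 7475 with Cys starvation and 11788 to 12540 between the starvations, and 9, 8 to 9 and 7 to 9 of the 9 genes. Same-numbered libraries did not deviate together, which does not show whether they were cultured or processed together. With the replicate block the counts of all genes were 12488, 7063 and 12334, and those of the 9 genes 9, 8 and 8. Correlations of same-numbered deviations were 0.1064, -0.07303 and 0.01026 for Thr-starved and unstarved libraries.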
